A study of Mus musculus with 32 samples.

Results

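The mitochondrial ribosomal proteins were taken as the genes of the 3′UTR count table whose symbol starts with Mrpl or Mrps and a number, with 4 pseudogene rows left out. This gave 76 of 44081 genes, 47 named for the large subunit (Mrpl) and 29 for the small subunit (Mrps). All 76 passed the filter on low counts, and no measured value entered their choice. Mitoribosomes translate the few proteins encoded by mitochondrial DNA, all of them core subunits of the respiratory chain and the ATP synthase. The proteins of the mitoribosome are encoded in the nucleus, translated in the cytosol and imported. Some have counterparts in bacterial ribosomes (bacterial-type), and others are found in mitochondria alone (mitochondria-specific). Neurons carry mitochondria into their dendrites, where they supply ATP and buffer calcium near synapses, so the place where mRNAs for mitochondrial proteins lie is a recurrent question in the field.

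Hippocampal neurons of C57BL/6 mice were dissociated at embryonic day 18 and kept in culture for 15 days, with no treatment and no genetic change in any sample. The dendrites and the soma of each of 16 single neurons were aspirated with a micropipette into separate tubes, which gave 16 dendrite and 16 soma libraries paired by neuron. RNA with a poly-A tail was amplified linearly with T7 polymerase (aRNA), in 3 rounds for neurons 1 to 4 and in 2 rounds for the other 12. As a model, a pair is the dendrites and soma of 1 cultured neuron, and the labels do not say which neurons shared a culture or an embryo, so p-values measure the spread between these 16 pairs.

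Dendrites had between 646521 and 6954420 reads on 3′UTRs and somas between 925525 and 21169974. The pan-neuronal markers Map2, Snap25, Tubb3, Syt1, Rbfox3 and Grin1 had reads in both compartments, with a median summed level of 4183 CPM (reads per 1000000, scaled by edgeR's TMM factors) in dendrites and 5052 in somas. The 3 interneuron markers Gad1, Gad2 and Slc32a1 summed to medians of 4033 and 9639 CPM and the 3 pyramidal cell markers to 131 and 35.6 CPM. The summed astrocyte markers ranged from 0 to 846 CPM in dendrites (median 159) and from 0 to 538 CPM in somas (median 57.5), those of microglia from 0 to 386 (median 9.26) and from 0 to 11.8 (median 0.832), and those of endothelium from 0 to 135 (median 2.11) and from 0 to 129 (median 0.265), with Cldn5 at 0 in every library. The oligodendrocyte list had medians of 14.8 and 6.09 CPM. All 6 astrocyte, 6 microglial and 6 oligodendrocyte markers and 4 of 5 endothelial markers had a read in at least 1 dendrite library, and their part in the results was not tested. The nuclear RNAs Malat1, Meg3 and Snhg11 summed to medians of 515 CPM in dendrites and 1761 CPM in somas.

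Sequence before the start sites was compared first, as a property that the choice by symbol did not use. Promoters of nuclear genes for mitochondrial proteins are known for sites of GABP, NRF1 and YY1. RefSeq promoter sequence (GRCm38.p6, 250 bases before to 50 after a start site) matched 67 of the 76 members by symbol. The GABP core CCGGAAGT was found on either strand in the promoters of 12 members (17.9%), against 9.79% of 7373 tested genes and 4.31% of all 27025 genes with a promoter. The NRF1 motif GCGCATGCG was found in 7 members (10.4%), against 4.62% of tested genes and 1.95% of all genes, and the YY1 motif AAGATGGCG in 8 members (11.9%), against 4.10% and 1.64%, both on either strand. Among 56 cytosolic ribosomal protein genes, the shares were 19.6%, 5.36% and 3.57%. At least 1 of the motifs lay in 26 members, and 1 of these, Mrps27, had 2 of them (GABP and YY1), which did not overlap. These are matches of letters and not measured binding sites. Mrpl22, which is among the members called below, has an NRF1 match (chr11:58171621-58171650) whose window is not shown. A window of 30 bases is shown for some of the members named below, on the strand of the gene. The motif is in capitals (GABP in Mrpl33, Mrpl52, Mrpl51 and Mrpl43, NRF1 in Mrpl32, YY1 in Mrps18a).
Mrpl33, chr5:31613937-31613966, plus strand: ccgcgcatgccCCGGAAGTagtcgttgagc
Mrpl52, chr14:54426899-54426928, plus strand: gggccacgcccACTTCCGGttcccttgctc
Mrpl51, chr6:125192099-125192128, plus strand: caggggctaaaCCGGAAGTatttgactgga
Mrpl43, chr19:45006436-45006465, minus strand: caaccccggaaCCGGAAGTcaccggttagt
Mrpl32, chr13:14613105-14613134, minus strand: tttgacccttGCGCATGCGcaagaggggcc
Mrps18a, chr17:46111005-46111034, plus strand: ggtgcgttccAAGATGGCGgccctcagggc
In Mrpl52 the GABP core lies on the opposite strand, so its reverse complement is in capitals. The Mrpl33, Mrpl43, Mrpl52 and Mrps18a windows span or follow the annotated start site.

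The first comparison asked whether mRNAs of the mitoribosome were higher in the dendrites or in the soma of the same neuron. Mrpl32, Mrpl40, Mrpl44 and Mrpl22 were higher in somas, and no member was higher in dendrites, at an adjusted p of at most 0.05 (edgeR quasi-likelihood test with neuron as a block, Benjamini-Hochberg over 10880 genes). The 4 members are 5.26% of 76, and 5.71% of all tested genes were called higher in somas. The 0 members called higher in dendrites stand beside 0.827% of all tested genes. At an unadjusted p under 0.05, 21 members were higher in somas and 1 in dendrites, beside 26.7% and 3.55% of all tested genes. The median log2 fold change of dendrite over soma was -1.50 for the members (SD over members 1.49, range -6.17 to 1.45) and -1.49 for all tested genes, and 37 of 76 members lay above the median of all genes. Above 0 lay 8 members (10.5%), beside 21.2% of all tested genes. In the shares called higher in somas and in the median the members were near the background of all genes, and values are relative to the reads of each compartment, so less mRNA of a gene and more of other RNA cannot be told apart. DESeq2 on the same counts called 40 members higher in somas and 1 member, Mrpl33, in dendrites, where it called 46.2% and 4.26% of all genes. Scaled to the spike-in RNA, exon counts gave 57 members higher in somas, beside 62.7% of all genes, and with the median gene set at 0 there were 2 members higher in somas, beside 0.846%, and 1 (Mrpl33) in dendrites, beside 5.04%.

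**Figure D1:**
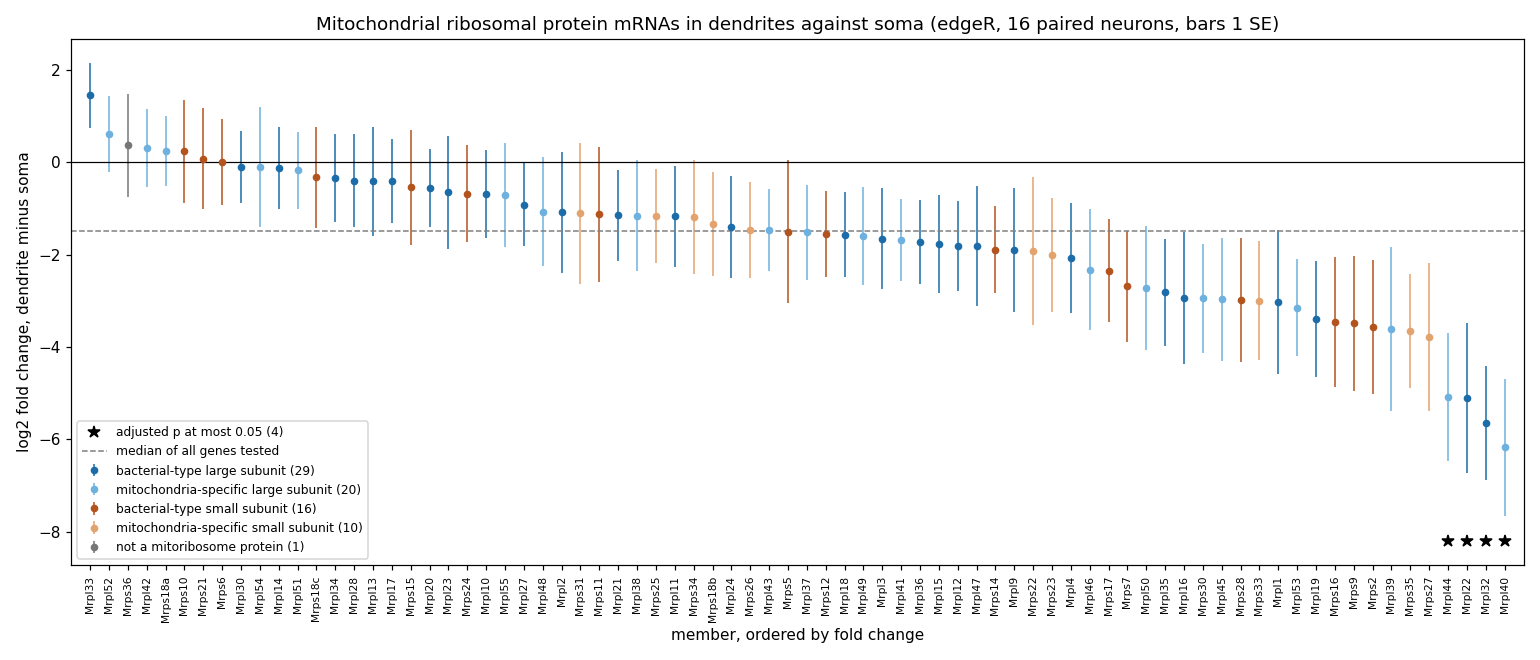
Log2 fold change of dendrite over soma for each of the 76 members (y axis, points, with bars of 1 SE from the edgeR fit over 16 paired neurons), ordered along the x axis and coloured by class. Mrpl33 is at the left end at 1.45 and Mrpl40 at the right end at -6.17, 8 members lie above 0, the dashed line marks the median of all tested genes at -1.49, and stars mark the 4 members called higher in somas.

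Mrpl32 encodes the bacterial-type large subunit protein bL32m, known as a substrate that the m-AAA protease must process before mitoribosomes assemble (gene ENSMUSG00000015672.4, chr13:14608184-14613165, minus strand). It had reads in 16 of 16 somas, from 31.9 to 166 CPM with a median of 64.9. In dendrites it had reads in 10 libraries, with a median of 1.41 CPM and a highest value of 92.2 CPM in neuron 2. The next highest dendrite value was 12.4 CPM, in neuron 5. The soma was higher in 16 of 16 neurons, although the dendrites of neuron 2 overlapped the range of the somas. The log2 fold change was -5.65 ± 1.24 (SE) with an adjusted p of 0.0108 (edgeR).

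Mrpl40 encodes a mitochondria-specific large subunit protein, mL40 (ENSMUSG00000022706.16, chr16:18872018-18876862, minus strand). It had reads in 15 somas, with a median of 42.8 CPM and a highest value of 206 CPM in neuron 15. In dendrites it had reads in 8 libraries, with a median of 0.371 CPM, and the highest values were 44.1 CPM in neuron 11 and 19.8 CPM in neuron 2. In those 2 neurons the dendrites were above the soma, in 13 the soma was higher, and neuron 12 had no reads in either compartment. The log2 fold change was -6.17 ± 1.48 (SE), adjusted p = 0.0145 (edgeR).

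Mrpl44 encodes mL44, a mitochondria-specific large subunit protein related to RNase III (ENSMUSG00000026248.9, chr1:79776018-79781445, plus strand). All 16 somas had reads, from 9.59 to 106 CPM with a median of 46.7. In dendrites 10 libraries had reads and the median was 0.849 CPM, and 4 of them stood within the range of the somas at 30.3, 46.6, 37.5 and 69.3 CPM (neurons 2, 3, 8 and 11). The soma was higher in 14 of 16 neurons, and the log2 fold change was -5.09 ± 1.39 (SE) with an adjusted p of 0.0238 (edgeR).

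Mrpl22 encodes uL22m, a bacterial-type protein at the exit tunnel of the large subunit (ENSMUSG00000020514.8, chr11:58171661-58179565, plus strand). It had reads in 15 somas with a median of 33.0 CPM, and in 8 dendrites with a median of 0.478 CPM. Its dendrites were split: neurons 3, 10 and 13 had 38.4, 34.2 and 38.0 CPM, and 8 neurons had 0. The soma was higher in 13 neurons, and in neuron 13 all reads were in the dendrites. The log2 fold change was -5.11 ± 1.62 (SE), adjusted p = 0.0466 (edgeR).

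The firmness of these 4 calls differed. With each neuron left out in turn, Mrpl32 and Mrpl40 passed in 16 of 16 fits, with adjusted p-values (edgeR) from 0.00722 to 0.0232 and from 0.00834 to 0.0362. Mrpl44 passed in 11 fits (0.0154 to 0.0608), and Mrpl22 in 5 (0.0375 to 0.117). Mrpl44 was lost without neuron 1, 12, 13, 15 or 16. Counts on whole exons gave adjusted p-values of 0.0239 for Mrpl32, 0.0305 for Mrpl40, 0.033 for Mrpl44 and 0.0601 for Mrpl22 (edgeR). Without neurons 10, 12, 15 and 16, whose dendrites had reads of the fewest genes of all kinds, 0 members were called, beside 0.221% of all genes called higher in somas. The log2 fold changes of Mrpl32, Mrpl40, Mrpl44 and Mrpl22 were then -4.66, -5.30, -4.48 and -4.33 with adjusted p-values of 0.0694, 0.114, 0.162 and 0.23 (edgeR), and at an unadjusted p under 0.05 there were 11 members higher in somas and 1 in dendrites, beside 12.9% and 3.63% of all genes.

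Neurons differed in the balance of the members between compartments. The median over the 76 members of the log2 ratio of dendrite over soma (CPM + 1) was -4.06, -2.45, -3.98 and -4.10 in neurons 10, 13, 15 and 16. In the other 12 neurons it lay between -1.43 and 0.36, above 0 in neurons 2, 3 and 7. The dendrites of neurons 10, 15 and 16 also had reads of the fewest members (38, 26 and 38). Without the 4 neurons with the fewest genes in dendrites, the median log2 fold change was -0.85 for the members and -0.79 for all genes (edgeR).

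The next members on the soma side did not pass. Mrpl53, a protein of the stalk region of the large subunit, had reads in 13 somas and 4 dendrites, at most 7.37 and 5.70 CPM, and its log2 fold change was -3.14 ± 1.05 (SE) with an adjusted p of 0.0569 (edgeR). Mrps35, a mitochondria-specific small subunit protein, had a median of 76.1 CPM in somas and 5.26 CPM in dendrites, and its soma was higher in 14 of 16 neurons (log2 fold change -3.65, adjusted p = 0.0588, edgeR). The bacterial-type Mrpl19 had medians of 69.5 and 3.83 CPM (log2 fold change -3.39, adjusted p = 0.0764, edgeR). For Mrps30, which despite its name encodes a protein of the large subunit, the medians were 52.7 and 6.72 CPM (log2 fold change -2.95, adjusted p = 0.097, edgeR). Each of the last 3 had single dendrite libraries above 200 CPM, with 270 CPM in neuron 12 for Mrps35, 237 CPM in neuron 10 for Mrpl19 and 299 CPM in neuron 14 for Mrps30, values above all somas for Mrps35 and Mrps30.

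On the dendrite side, Mrpl33 stood at the far end of the members. It encodes bL33m, a small bacterial-type protein of the large subunit (ENSMUSG00000106918.3, chr5:31596935-31664384, plus strand), and its promoter window with a GABP core is given above. All 32 libraries had reads. Dendrites ranged from 14.8 to 1064 CPM with a median of 188, and somas from 22.2 to 236 CPM with a median of 63.2. The dendrites were higher in 13 of 16 neurons, and the soma in neurons 2, 12 and 16. The log2 fold change was 1.45 ± 0.71 (SE), with an unadjusted p of 0.0447 and an adjusted p of 0.157 (edgeR), which did not pass, while DESeq2 gave 1.18 with an adjusted p of 0.0222. Mrpl33 lies at the 92.8th percentile of the fold changes of all tested genes, and its annotated span overlaps the opposite-strand gene Rbks and the same-strand model Gm43809.

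The other 7 members with a log2 fold change above 0 had adjusted p-values of 0.61 or more (edgeR). Mrpl52, a mitochondria-specific large subunit protein, had medians of 83.8 CPM in dendrites and 53.9 CPM in somas with the dendrites above the soma in 10 of 16 neurons (log2 fold change 0.61 ± 0.83, SE). Mrpl42 had medians of 151 and 148 CPM and a log2 fold change of 0.32. Mrps18a, which encodes a large subunit protein, had medians of 66.5 and 55.9 CPM and a value of 0.25. The bacterial-type small subunit members Mrps10, Mrps21 and Mrps6 had log2 fold changes of 0.24, 0.08 and 0.00. Mrps36 had a value of 0.37 with medians of only 9.43 and 5.17 CPM, and despite its symbol its product is known as a subunit of the 2-oxoglutarate dehydrogenase complex, not of the mitoribosome. The dendrites and somas of all 7 overlapped.

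**Figure D2:**
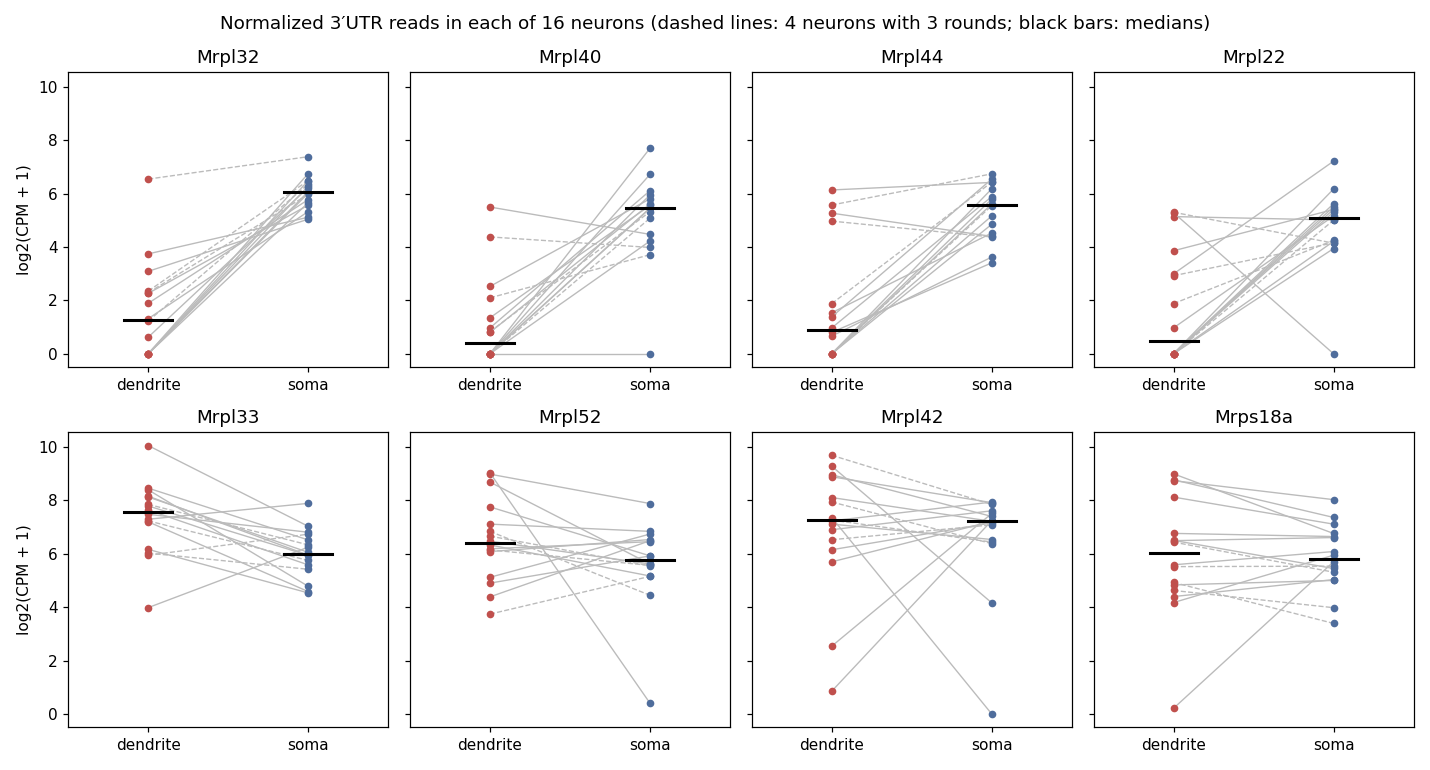
Normalized 3′UTR reads of 8 members as log2(CPM + 1) (y axis) in dendrites (red) and soma (blue), with a line for each of 16 neurons, dashed for the 4 neurons with 3 rounds, and black bars for medians. For the 4 members called higher in somas (upper row) most dendrite points lie near 0 with single high neurons, and for Mrpl33 the dendrites were higher in 13 of 16 neurons.

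The 8 members with the most normalized reads in dendrites, by the median, were Mrpl33, Mrps6, Mrpl42, Mrpl30, Mrpl51, Mrpl43, Mrpl20 and Mrpl10, at 188, 168, 151, 138, 124, 108, 107 and 95.5 CPM. Reads lie mostly near 3′ ends, so these values rank reads and not molecules per length. In somas the same members had medians of 63.2, 196, 148, 99.7, 118, 170, 117 and 91.1 CPM. Mrps6 ranged from 0 (neurons 15 and 16) to 1299 CPM (neuron 3) in dendrites, and its span holds the same-strand gene Slc5a3 and 2 further gene models, so its counts are uncertain. Mrpl30, Mrpl51, Mrpl20 and Mrpl10 had log2 fold changes of -0.09, -0.17, -0.56 and -0.68, and Mrpl43 of -1.46, with adjusted p-values of 0.25 or more (edgeR). Mrpl10, which anchors the stalk of the large subunit, had 0 CPM in the dendrites of neuron 13 and 834 CPM in those of neuron 3.

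Grouped by structural class, the members differed little in their medians. The 29 bacterial-type large subunit members had a median log2 fold change of -1.41 with 2 called higher in somas, and the 20 mitochondria-specific ones of -1.55 with 2 called. The 16 bacterial-type small subunit members had a median of -1.53 and the 10 mitochondria-specific ones of -1.69, with 0 called in each at an adjusted p of at most 0.05 (edgeR). Of all tested genes 5.71% were called higher in somas, and classes this small cannot be told apart from that share. At an unadjusted p under 0.05, 5, 7, 6 and 3 members of these classes, in the same order, were higher in somas, beside 26.7% of all tested genes, and 1 (Mrpl33) in dendrites. The 5 proteins of the stalk, which recruits translation factors, had a median of -1.17 with 0 called and 1 at an unadjusted p under 0.05 (edgeR).

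Other genes of mitochondrial translation outside the symbol rule were 48 in the table, of which 44 were tested. They comprise 6 further mitoribosome proteins, 15 translation factors and 27 genes of rRNA processing and mitoribosome assembly. Among them 1, Mrm1, which methylates the 16S rRNA of the mitoribosome, was called higher in somas, beside 5.71% of all tested genes. Called higher in dendrites were 0, beside 0.827% of all tested genes. Mrm1 had reads in 13 somas and 3 dendrites, with medians of 5.83 and 0 CPM, and its log2 fold change was -5.97 ± 1.30 (SE) at an adjusted p of 0.0108 (edgeR). The transcription termination factor family member Mterfd1 (-4.49) and the elongation factor Tsfm (-3.53) came next, each with an adjusted p of 0.0557 (edgeR). Highest on the dendrite side by p were the pseudouridine synthase family member Rpusd4 (1.80), the recycling factor Gfm2 (1.69) and the mitochondrial mRNA-binding protein Slirp (0.69), with adjusted p-values of 0.311, 0.464 and 0.487 (edgeR). Slirp had reads in all 32 libraries, with medians of 223 CPM in dendrites and 145 CPM in somas. The median over the 44 genes was -1.75.

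The members were then set beside 2 lists that share a feature with them, the proteins of the cytosolic ribosome and the OXPHOS subunits encoded in the nucleus (respiratory chain and ATP synthase). The 76 cytosolic ribosomal proteins had a median log2 fold change of 1.04, with 8 called higher in dendrites and 0 in somas, and 73 of 76 lay above 0. The 77 tested respiratory chain and ATP synthase subunits had a median of 0.76, with 14 called higher in dendrites and 0 in somas, and 60 lay above 0. Of all tested genes, 0.827% were called higher in dendrites and 5.71% in somas. Of the 76 mitochondrial ribosomal proteins 8 (10.5%) lay above 0, and of all tested genes 21.2%. These medians describe the lists and were not tested against each other. Without the block for neuron, the median of the members was -0.19, beside -0.22 for all genes.

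**Figure D3:**
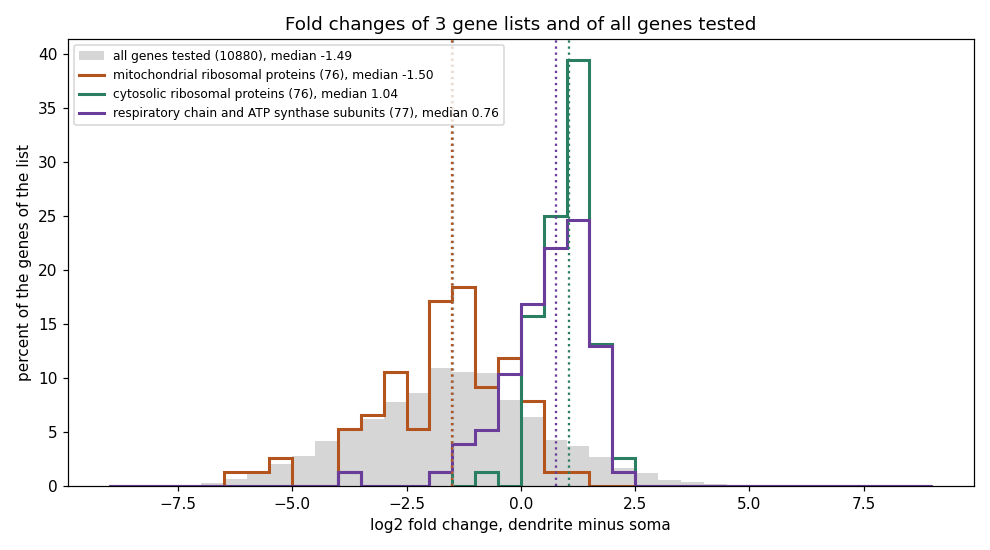
Distribution of log2 fold changes of dendrite over soma (x axis, bins of 0.5) as percent of the genes of each list (y axis) for all 10880 tested genes (grey) and 3 lists (lines), with dotted lines at the medians. The mitochondrial ribosomal proteins and all genes have medians of -1.50 and -1.49, with 10.5% and 21.2% of them above 0, and the cytosolic ribosomal proteins and respiratory chain subunits lie to the right at 1.04 and 0.76.

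Fold changes went with length among the members. The 12 members with a coding sequence under 400 nt had a median log2 fold change of -0.26, the 36 from 400 to 700 nt of -1.16, and the 28 of 700 nt or more of -1.99, and 5, 3 and 0 of them lay above 0. All tested genes in the same classes had medians of -0.31, -1.34 and -1.81. The cytosolic ribosomal proteins had 1.45, 1.00 and 0.40 in these classes and the respiratory chain and ATP synthase subunits 1.22, 0.51 and -0.15. Spearman's rho between log2 fold change and mRNA length was -0.50 across the 76 members, which share all libraries and are not independent. It was 0.01 across 9103 tested genes with an annotated length, -0.41 among cytosolic ribosomal proteins and -0.63 among respiratory chain subunits. By class, mRNAs under 800 nt, from 800 to 1500 nt and of 1500 nt or more had medians of -0.34, -1.43 and -1.90 among members. All tested genes had 0.07, -1.49 and -1.77 in these classes, so the fall was not particular to the members. With coding length rho was -0.43 among members, -0.08 among all tested genes, -0.59 among cytosolic ribosomal proteins and -0.69 among respiratory chain subunits. Coding sequences of the members ran from 195 nt in Mrpl33 to 1326 nt in Mrps30, and mRNAs from 418 nt in Mrpl52 to 7300 nt in Mrpl17. Single members departed from the trend, since Mrpl17 had a log2 fold change of -0.41 and the called Mrpl22 and Mrpl40 had mRNAs of 722 and 1280 nt. The median soma level of the members had a rho of 0.04 with the fold change.

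The second question was which members were present in the dendrites of nearly every neuron, counted as 1 read or more in 15 or 16 of the 16 dendrites. There were 14 such members, Mrpl9, Mrpl10, Mrpl17, Mrpl27, Mrpl30, Mrpl33, Mrpl34, Mrpl36, Mrpl42, Mrpl43, Mrpl51, Mrpl52, Mrps14 and Mrps18a. This is 18.4% of the members, beside 17.1% of tested genes, 98.7% of cytosolic ribosomal proteins and 96.1% of respiratory chain and ATP synthase subunits. By the same count 69 members were present in somas. Reads in all 16 dendrites were found for Mrpl17, Mrpl27, Mrpl30, Mrpl33, Mrpl42, Mrpl52 and Mrps18a (9.21%, beside 8.01% of tested genes). With a minimum of 10 reads, 4 members remained (Mrpl33, Mrpl51, Mrpl52 and Mrps18a), or 5.26% beside 6.99%. With 1 read or more in at least 14 dendrites there were 30 (39.5%, beside 26.5%).

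Per library, dendrites had reads of 59.3 ± 14.9 members (SD, n = 16) and somas of 73.9 ± 3.24 (SD, n = 16). The dendrites of neuron 15 had the fewest, 26 members, and those of neuron 2 the most, 75. More members were found in the soma in 14 neurons and in the dendrites in neurons 2 and 5. With 3 rounds of amplification the dendrites had 70.3 ± 4.57 members (SD, n = 4) and with 2 rounds 55.7 ± 15.5 (SD, n = 12). Genes of all kinds were also fewer in dendrites, at 10570 ± 3449 beside 12925 ± 2009 in somas (SD, n = 16 each). Dendrites had 11693 ± 3263 genes with 3 rounds (SD, n = 4) and 10195 ± 3565 with 2 rounds (SD, n = 12). The dendrites of neuron 15 also had the fewest genes of all kinds, 3888, and the member with most reads there, Mrps12, took 23.8% of the reads of all members.

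The summed reads of the members were 0.472% ± 0.177 of 3′UTR reads in dendrites and 0.553% ± 0.0969 in somas (SD, n = 16 each), a difference of -0.0819 ± 0.162 percentage points between dendrites and soma of a neuron. The soma was higher in 12 of 16 neurons. Mitochondrially encoded transcripts took 15.3% ± 9.80 of dendrite and 2.02% ± 2.12 of soma reads (SD, n = 16 each), and without them the shares of the members were 0.567% ± 0.230 and 0.565% ± 0.0972, with 8 neurons on each side. The cytosolic ribosomal proteins took 3.03% ± 0.842 in dendrites and 1.54% ± 0.438 in somas, higher in dendrites in 15 of 16 neurons. The respiratory chain and ATP synthase subunits took 6.62% ± 2.43 and 3.94% ± 0.723, also higher in dendrites in 15 of 16. Per read of the ERCC spike-in RNA, which was added to neurons 3 to 16, the members had 0.506 ± 0.460 exon reads in dendrites and 2.81 ± 2.69 in somas (SD, n = 14 each), with the soma higher in 13 of 14 neurons.

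**Figure D4:**
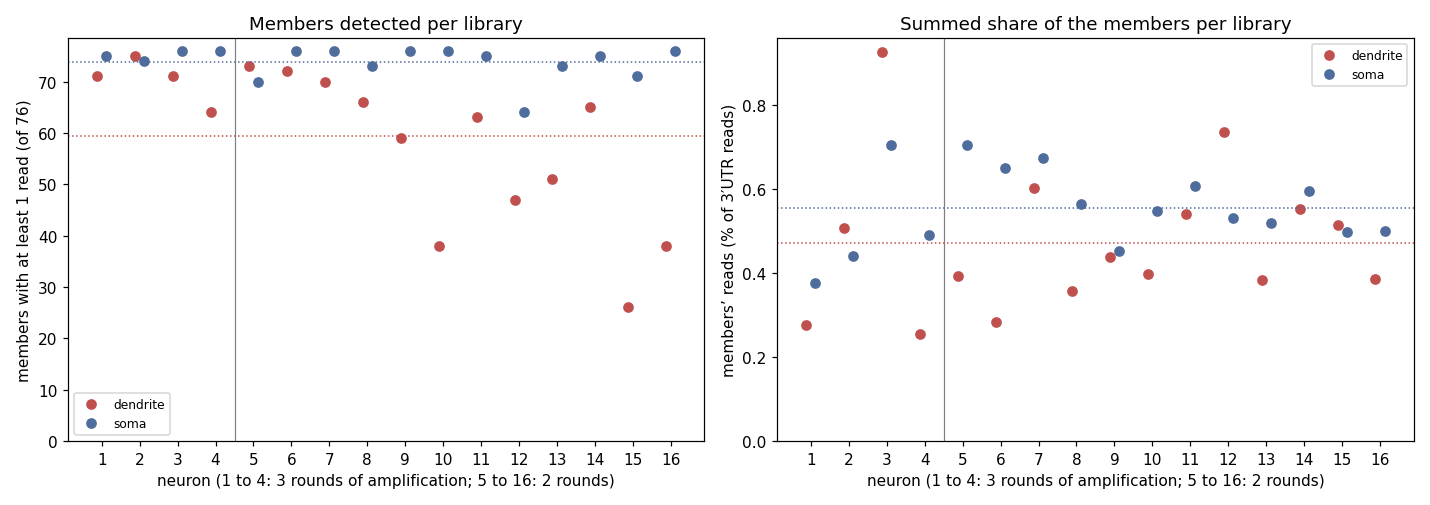
Left, members with at least 1 read out of 76, and right, the members' share of 3′UTR reads in percent (y axes), for dendrites (red) and soma (blue) of each neuron (x axis), with dotted lines at the means and a vertical line between neurons with 3 and 2 rounds. Dendrites held 59.3 members on average with 26 in neuron 15, somas 73.9, and the summed shares were 0.472% and 0.553%.

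The sum weights members by their reads, whereas each member counts once in the median of the fold changes. The dendritic read fraction of a member, its dendrite CPM over the sum of both compartments, was 0.342 at the median over members, and its variance between neurons had a median of 0.0879. The cytosolic ribosomal proteins had a median fraction of 0.683 and a variance of 0.0266, the respiratory chain subunits 0.647 and 0.0248, and all genes 0.264 and 0.106.

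Whether the difference between compartments differed between neurons with 2 and with 3 rounds was tested as an interaction. It passed for 0 of 76 members at an adjusted p of at most 0.05, and for 0.0% of all genes (edgeR). At an unadjusted p under 0.05 it was met by 1 member, Mrps28, beside 2.65% of all genes, and DESeq2 gave 0 members adjusted and 6 unadjusted, beside 0.423% and 10.4% of all genes. In the 12 neurons with 2 rounds alone the members' median log2 fold change was -2.10 with 3 called higher in somas, beside 3.25% of all genes (median of all genes -1.73), and in the 4 neurons with 3 rounds -0.30 with 0 called, beside 0.00919% (median of all genes -0.62). In the 2-round neurons Mrpl32, Mrpl40 and Mrpl44 had values of -6.72, -7.19 and -5.74 and in the 3-round neurons -3.56, -3.05 and -2.74. The sample labels of the 3-round neurons share no letter series with those of the 2-round neurons. Neurons 10, 12, 15 and 16, with the fewest genes in dendrites, all had 2 rounds. Rounds therefore cannot be separated from other differences between these neurons, and dependence on amplification itself was not tested.

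The last comparison asked whether dendrites and somas used different 3′ ends of a member. The authors' second table counts reads on the last 500 nt of each annotated 3′ end, numbered within a gene without coordinates, so which end is proximal or distal cannot be read from it. Of the members, 53 had at least 2 ends, and 41 had at least 10 reads on their 2 most-read ends in both compartments of at least 5 neurons. The share of the higher-numbered end differed at p under 0.1 in 8 of the 41 (19.5%, exact signed-rank test, two-sided), beside 8.79% of 3494 genes. With Benjamini-Hochberg adjustment 0 members and 0 of all genes passed at 0.05 (exact signed-rank test), and the smallest adjusted p of a member was 0.758. At an unadjusted p under 0.05 there were 4 of the 41 members and 165 of the 3494 genes.

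Mrpl13, a bacterial-type large subunit protein, had the smallest p. End 3 against end 1 held 5.88% ± 7.59 of its reads in dendrites and 13.3% ± 8.19 in somas (SD, n = 9 neurons), and was lower in dendrites in 8 of 9 (exact p = 0.00781). In Mrps7, the small subunit protein uS7m, the second end held 4.83% ± 7.20 and 13.1% ± 10.1 (SD, n = 9, exact p = 0.0156), with lower dendrites in 7 and equal shares in 1. Mrpl10 (-3.65 percentage points, n = 12, exact p = 0.084) and Mrpl52 (-0.83 percentage points, n = 15, exact p = 0.0419) also had lower shares in dendrites, and for Mrpl52 the second end was rare throughout, at 1.61% ± 2.23 and 2.43% ± 1.79 (SD). For Mrpl10 the dendrites were lower in 8 neurons and higher in 2. Much of its mean difference came from neuron 11, at 12.7% in dendrites and 40.7% in the soma.

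In the other 4 members the higher-numbered end had a larger mean share in dendrites than in somas, and in the dendrites of single neurons nearly all reads lay on it. Mrps35 had 0% on end 3 (against end 2) in the somas of all 6 neurons with enough reads. In dendrites it had 90.0%, 100% and 93.3% in neurons 1, 8 and 14, 5.00% in neuron 2, 0.136% in neuron 11 and 0% in neuron 12 (exact p = 0.0625, where the smallest possible with 6 pairs is 0.0313). The dendrite values of neurons 1, 8 and 14 rest on 40, 66 and 15 reads. Mrps23, a mitochondria-specific small subunit protein, had 46.7% ± 39.7 in dendrites and 12.0% ± 6.62 in somas (SD, n = 9, exact p = 0.0547), with dendrites from 0% to 100% and somas from 5.26% to 22.3%. Mrpl21 held 100% and 94.8% on end 5 (against end 2) in the dendrites of neurons 6 and 14 and at most 21.1% in the other 8, while somas were at 6.30% or less (exact p = 0.0645). Mrps33 had 32.0% ± 32.4 and 9.38% ± 10.3 (SD, n = 7, exact p = 0.0313), higher in dendrites in 6 of 7. Mrpl33, with 7 ends in the table, had 100% of its reads on end 7 (against end 3) in all 16 dendrites and 99.6% ± 1.40 in somas (SD, n = 16), with a difference in 1 neuron.

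**Figure D5:**
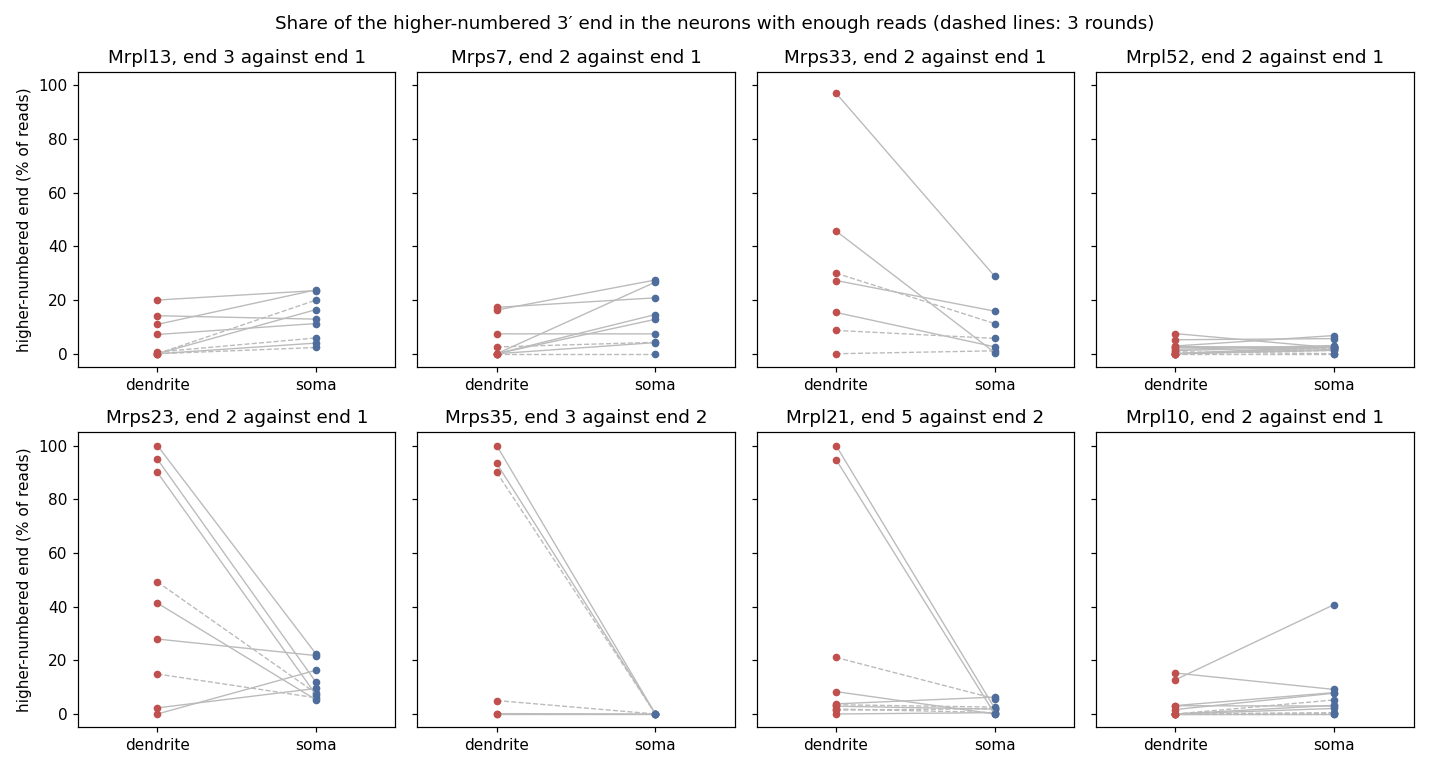
Share of reads on the higher-numbered of the 2 most-read 3′ ends (y axis, percent) in dendrites (red) and soma (blue) of the 8 members with an unadjusted p under 0.1, with a line for each neuron with at least 10 reads in both compartments (dashed for 3 rounds). Mrps35, Mrps23 and Mrpl21 had dendrites near 100% in 2 or 3 neurons with somas below 25%, and Mrpl13 and Mrps7 had lower shares in dendrites.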

How the data were processed

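Soma and dendrite RNA of 16 single neurons was amplified and sequenced (32 libraries). The authors removed adapters and poly-A stretches from reads, mapped reads to mm10 with STAR 2.4.0 and counted uniquely mapped reads with VERSE, strand-aware. All deposited values are read counts without normalization, on the union of the 3′UTRs of a gene, on the last 500 nt of single 3′ ends, and on exons with ERCC spike-ins. The counts hold no molecular identifiers, amplification can lose rare mRNAs from a library, and counts of genes that overlap on the same strand (13 members) are uncertain.

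Genes that had reads in 16 or more libraries (10880) were compared with edgeR 4.0.16 in R 4.3.3 (TMM, robust quasi-likelihood test, neuron as a block, Benjamini-Hochberg adjusted p at most 0.05). CPM are counts over the TMM-scaled library size, per 1000000. DESeq2 1.42.0 and 12 further kinds of alternatives were run. 3′ ends were compared with an exact signed-rank test. The design had named the measure a distal fraction, and since the ends carry no coordinates it is given as the share of the higher-numbered end. Both tests were checked on simulated data. Lengths and spans came from GENCODE M21 (GRCm38), which held all 76 members, and promoters from RefSeq. Python 3.11.15, NumPy 2.4.6, pandas 2.3.3 and SciPy 1.17.1 served for the rest. Proteins of the members and the authors' lists were not used here.

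Both compartments came from the same cell, which gives the pairing. With each gene centred on its mean per compartment, libraries of the same neuron had a correlation of 0.0887 ± 0.0772 (SD, n = 16) and of different neurons -0.00559 ± 0.0526 (SD, n = 240). No pair of libraries held identical counts.

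The members, lists and tests were chosen with earlier results of these data known. Members named are those called, the 8 with the smallest p in each direction, the 8 with most reads in dendrites, those with p under 0.1 for 3′ ends, and from the other genes of mitochondrial translation those called and 3 in each direction. Read numbers differ between libraries, and the spread between neurons, not the reads, set the precision.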

Additional observations from a re-analysis of the deposited data

Results flagged for a closer look

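Within the 4 neurons with 3 rounds of amplification, the named members were searched for a single library that stood apart from the other 3, by its gap to the nearest library over the range of the 4. Of 46 such groups of 4, 6 passed the 95% critical value of 0.829. Chance passes about 1 in 20 groups of normally distributed values, and the rate for these CPM, some of them 0, was not tested. Mrpl32 had 92.2 CPM in the dendrites of neuron 2, Mrpl40 had 19.8 CPM there, and Mrpl22 had 31.0 CPM in the soma of neuron 4. Mrps36 had 95.6 CPM and Mrps6 1299 CPM in the dendrites of neuron 3. Mrpl53 had 0.774 CPM in the dendrites of neuron 4, from 1 read, and 0 in the other 3. No member passed the test of a difference between 2 and 3 rounds.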

How the results depend on the processing

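Of the 4 members called higher in somas with edgeR, Mrpl32 and Mrpl40 passed with every alternative except no replicate block, the 4 neurons with 3 rounds alone, and the 12 neurons left without neurons 10, 12, 15 and 16 (chosen after seeing the data for the fewest genes in dendrites). No alternative turned the direction of any of the 4. The number of members called higher in somas was 40 with DESeq2, 57 with exon counts scaled to the spike-ins, 7 with RLE size factors (9.26% of all genes), 2 with all genes that had a read (0.46%), 0 in the 3-round neurons, 0 in those 12 neurons (0.221%) and 2 to 6 with a neuron left out. It was 2 without neuron 1, 12, 15 or 16. Without neuron 1 this was 2.63% of members, beside 2.94% of all genes, and without neuron 10 it was 5.26%, beside 3.01%. With dendrite libraries rescaled so that the median gene lay at 0 it was 2, and 1 member (Mrpl33) was called higher in dendrites, while over all genes 548 were called higher in dendrites and 92 in somas in place of 90 and 621. DESeq2 also called 1 higher in dendrites. The edgeR fit on all neurons called 0 members higher in dendrites, and so did every edgeR fit with a neuron left out. The cause of these differences was not tested.

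Pairing by neuron mattered for the calls. With no replicate block, 0 members were called in either direction at an adjusted p of at most 0.05 (edgeR). Of all genes, 0.708% were then called higher in somas and 1.44% in dendrites. The members' median log2 fold change was -0.19 in that fit. The median was -4.08 with the spike-in scaling (all genes -4.11) and lay from -1.68 to -1.09 with a neuron left out. Members present in dendrites were 30 with at least 14 dendrites (39.5%, beside 26.5% of tested genes). They were 7 with all 16 (9.21%, beside 8.01%) and 4 with at least 10 reads (5.26%, beside 6.99%). Members with p under 0.1 for the 3′ ends (exact signed-rank test) were 5 of 37 with at least 20 reads (13.5%, beside 8.65% of genes). They were 4 of 35 in the 2-round neurons (11.4%, beside 8.45%) and 6 of 31 with at least 8 pairs (19.4%, beside 11.6%). A sign-flip test of the mean difference gave 7 of 41 (17.1%, beside 8.73%).

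Of the members that edgeR did not call, several changed sign. Under the rescaling Mrpl10, Mrpl20, Mrpl30, Mrpl43 and Mrpl51 had log2 fold changes of 0.81, 0.93, 1.40, 0.031 and 1.32. Without the block Mrpl10, Mrpl20, Mrpl30 and Mrpl51 had 0.50, 0.15, 0.28 and 0.22. In the 3-round neurons Mrpl10, Mrpl20, Mrpl30, Mrpl43, Mrpl51 and Mrps10 had 1.04, 0.38, 1.10, 0.24, 0.70 and -1.17. Mrpl30 and Mrpl51 had 0.25 and 0.21 on exons, 0.20 and 0.13 with at least 10 reads, and 0.27 and 0.26 with thinned pairs. With spike-in scaling Mrpl33, Mrpl42, Mrpl52, Mrps10, Mrps18a, Mrps21, Mrps36 and Mrps6 had -0.86, -2.84, -1.70, -1.56, -2.25, -2.26, -2.62 and -2.70. Mrps10, Mrps21 and Mrps6 had -0.092, -0.21 and -0.27 with DESeq2 and -0.092, -0.23 and -0.27 with RLE. Mrps21, Mrps36 and Mrps6 had -0.36, -0.33 and -0.37 in the 2-round neurons, and Mrps6 had -0.061 with all genes that had a read. In the 12 neurons with more genes in dendrites Mrpl10, Mrpl30 and Mrps10 had 0.47, 0.47 and -0.089. With a neuron left out, values ranged from -0.21 to 0.36 for Mrpl30, -0.31 to 0.33 for Mrpl51, -0.031 to 0.74 for Mrps10, -0.073 to 0.56 for Mrps21 and -0.26 to 0.52 for Mrps6.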
